A study of Homo sapiens with 17 samples.

Results

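Vimentin (VIM) is the protein of the type III intermediate filaments, which form a network through the cytoplasm. It is best known for giving cells and their organelles mechanical support, and it is not a classical RNA-binding protein with a defined RNA recognition domain. The data described here are the VIM eCLIP experiment of a study that asked where on RNA a set of candidate RNA-binding proteins lies. The members are all peaks deposited for both VIM libraries, with peaks on a strand merged into 1 region when they overlapped by 1 nt or more. The lists held 25125 of the 389788 peaks of the series, 10682 in replicate 1 and 14443 in replicate 2, and merging gave 21669 regions.

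In eCLIP, proteins are crosslinked to RNA in living cells by ultraviolet light, an antibody pulls out 1 protein, and its bound RNA pieces are read by sequencing. The study used 293T cells, a human embryonic kidney line that carries the SV40 large T antigen, irradiated on the plate with 400 mJ per square cm at 254 nm. The same treatment was given to all samples, and no untreated or knockdown group was part of the groups used here. VIM was precipitated with a rabbit antibody from Bethyl, and complexes were cut from a membrane over a window of 75 kDa above the protein. The series held 17 samples, which were 11 eCLIP libraries of 6 proteins and 6 size-matched inputs, RNA from the same gel window without antibody. AIFM1 (a mitochondrial flavoprotein), NUMA1 (a nuclear and spindle pole protein), RANGAP1 (the GTPase-activating protein of Ran), VIM and ZNF184 (a zinc finger protein) had 2 eCLIP libraries each, and RNF219 (a RING finger protein) had 1. The series names the replicates biological, without saying how they were grown.

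Each peak carried the authors' log2 fold over the input and the authors' -log10 p. Both VIM libraries were set against the same 1 input, so an input count that happened to be low raised both folds. The total reads of a library are unknown, but the folds were ratios of whole read numbers times a constant, the sequencing depth of the input divided by the depth of the library. This depth ratio was 4.84 for VIM replicate 1 and 3.27 for replicate 2, the highest of the 11 libraries, where the others ran from 0.534 to 3.18. The median deposited peak, where its reads could be settled, held 4 eCLIP reads beside 4 input reads in replicate 1 and 4 beside 3 in replicate 2. Reads can hold PCR copies, so every interval below covers counting error only. Whether a peak had 0 or 1 input read could not be settled. An input given below as 1 read can therefore stand for 0, and the intervals take it as 1.

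No annotation of hg19, the build of the lists, was used here, so gene names, transcript parts and sequences at these loci are not analysed here. Loci are named by hg19 position and strand.

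Most VIM peaks lay above input, and a small share passed a strict threshold in each library. The median log2 fold was 2.27 in replicate 1 and 2.20 in replicate 2, and 801 peaks (7.50%) and 1224 peaks (8.47%) lay below input. A peak with as many eCLIP as input reads has the depth ratio as its fold, a log2 fold of 2.27 in replicate 1 and 1.71 in replicate 2. A peak was called significant when its -log10 p reached 3 and its log2 fold reached 3 (8-fold). This held for 565 peaks of replicate 1 (5.29%) and 650 of replicate 2 (4.50%). Both shares stood beside 3.15% and 4.82% in ZNF184, 1.52% and 2.99% in RANGAP1, 1.51% and 0.877% in NUMA1, 0.926% in RNF219 and 0.216% and 0.214% in AIFM1. The depth ratio differed between the libraries, and its part in these shares was not tested. A further 2149 VIM peaks of replicate 1 and 3532 of replicate 2 passed the fold alone, and 337 and 342 passed the p alone. Beside 1 input read, a significant VIM peak held no fewer than 5 eCLIP reads in replicate 1 and 6 in replicate 2. Significant peaks had a median of 7 and 8 eCLIP reads beside 2 input reads, and 37.3% and 41.1% of those with settled reads had 1 input read. Significant peaks were wider than the list as a whole, with medians of 46 and 44 nt against 35 and 33 nt. On the plus strand lay 53.8% and 55.2% of them, against 50.4% and 50.2% of all deposited peaks.

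Most regions held a peak of 1 replicate alone. Of the 21669 regions, 3041 held a peak of both replicates, which is 29.0% of the 10496 regions with a replicate 1 peak and 21.4% of the 14214 with a replicate 2 peak. Among these 3041 regions the log2 fold was higher in replicate 1 by a median of 0.35, with an SD of 0.75. In 2295 regions both replicates were above input, in 434 (14.3%) both were below, and in 312 they lay on opposite sides. Of the 2108 regions with settled reads in both, the 95% Clopper-Pearson intervals of the folds lay apart in 11 with replicate 1 higher and in 6 with replicate 2 higher. All of these were among the 467 regions with at least 10 input reads in both. Fewer reads give wide intervals, so the remaining regions say little on closeness. Reads could not be settled in peaks below input, so those are left out. The shared input moves both folds of a region the same way, and its part in their closeness was not tested.

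**Figure D1:**
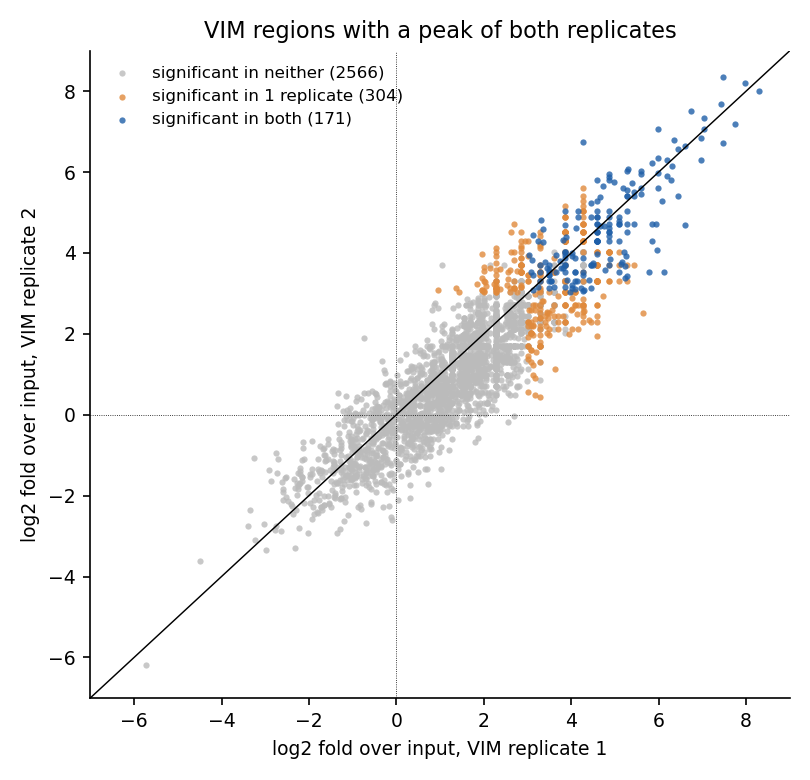
Log2 fold over the VIM input in replicate 1 (x axis) and replicate 2 (y axis) for the 3041 regions with a peak of both. Each point is 1 region, the line marks equal folds and dotted lines mark the input level; the 171 regions significant in both (blue) lie at the upper end, up to 8.30 and 8.34, and the 304 significant in 1 replicate (orange) lie around them.

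A significant peak in both replicates was found at 171 regions, called reproducible below, or 5.62% of the 3041 regions with a peak of both. They were short, with a median of 47 nt (range 2 to 211), and 94 lay on the plus and 77 on the minus strand. None of the 171 had a VIM peak on the opposite strand. The lower of the 2 log2 folds had a median of 4.27 (range 3.03 to 8.01), and it was at least 5 in 39 regions, at least 6 in 16 and at least 7 in 7. The peak borders also lay close together. In the 130 regions with a single peak of each replicate, the starts differed by a median of 2 nt and the ends by a median of 2 nt, and both ends lay within 5 nt in 75. The 171 counts abutting pieces of a site separately, and joining them left 165.

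Within the 171 regions the folds of the replicates differed by a median of 0.44 on the log2 scale and by 1 or less in 137. Replicate 1 was higher in 98 and replicate 2 in 73, with a median difference of 0.12. The largest difference, 2.61, was at chr8:32114016-32114062 on the plus strand, with 6.13 in replicate 1 and 3.52 in replicate 2. The next, 2.48, was at chr1:148767036-148767056 on the minus strand and ran the other way, with 4.27 and 6.75. These 2 regions were picked out after their values were seen.

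The strongest region lay at chr17:18965398-18965451 on the plus strand. Its log2 folds were 8.30 in replicate 1 and 8.01 in replicate 2. They came from at least 65 and at least 79 eCLIP reads beside an input counted as at least 1 read. It was significant with 4 other proteins as well, and both RANGAP1 libraries (8.93 and 8.85) and ZNF184 replicate 2 (8.72) stood above both VIM libraries there. The second region, chr4:13544062-13544098 on the minus strand, had 7.98 and 8.20, from at least 52 and at least 90 eCLIP reads. Here every other library with a peak was lower, from 2.56 in RANGAP1 replicate 1 to 6.12 in ZNF184 replicate 1. The third, chr2:219824450-219824479 on the plus strand, had 7.48 and 8.34 in VIM, and ZNF184 replicate 1 was at 7.49, between the VIM libraries.

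The fourth to sixth regions were places where VIM stood well above most other libraries. At chr21:9825923-9825965 on the plus strand, VIM had 7.42 and 7.68, NUMA1 replicate 2 had 4.70 and RANGAP1 replicate 2 had 3.29. AIFM1 and ZNF184 ran from -0.21 to 1.44 there, near the input level. At chr1:148241532-148241573 on the plus strand, VIM had 7.74 and 7.18 with -log10 p at its ceiling of 400 in both, and NUMA1 replicate 2 had 6.70. Both RANGAP1 libraries lay below input at this place, at -1.26 and -1.0, and the AIFM1 and ZNF184 libraries ran from -0.12 to 1.01. At chr17:39874416-39874445 on the plus strand, VIM had 7.04 and 7.34, NUMA1 replicate 2 had 4.40 and AIFM1 had 0.36 and 1.28. No peak of the other libraries lay there.

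The remaining 4 regions were all shared with ZNF184. At chr10:22614702-22614730 (plus strand) VIM had 7.03 and 7.07, and ZNF184 had 8.57 and 4.42, on either side of them. At chr19:3360210-3360246 (plus strand) VIM had 6.98 and 6.84 against 5.53 and 6.28 in ZNF184 and 4.47 in NUMA1 replicate 2. At chr14:103988910-103988945 (minus strand) VIM had 6.73 and 7.52. In replicate 1 this came from 22 eCLIP reads beside 1 input read, which gives a 95% Clopper-Pearson interval from 4.10 to 12.10 and shows how loosely a fold of this size is bounded. At chr6:31958259-31958280 (plus strand) VIM had 7.48 and 6.71, and the region was significant with all 5 other proteins, from 3.66 in RNF219 to 7.08 in NUMA1 replicate 2. All 10 of the strongest VIM regions were significant with at least 1 other protein. The eleventh, chosen for mention after its values were seen, was chr6:53084122-53084161 on the plus strand, with 6.61 and 6.66 in VIM and 7.22 in NUMA1 replicate 2. The AIFM1 libraries (-1.30 and -0.49) and the ZNF184 libraries (-1.23 and -2.43) were all below input there.

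**Figure D2:**
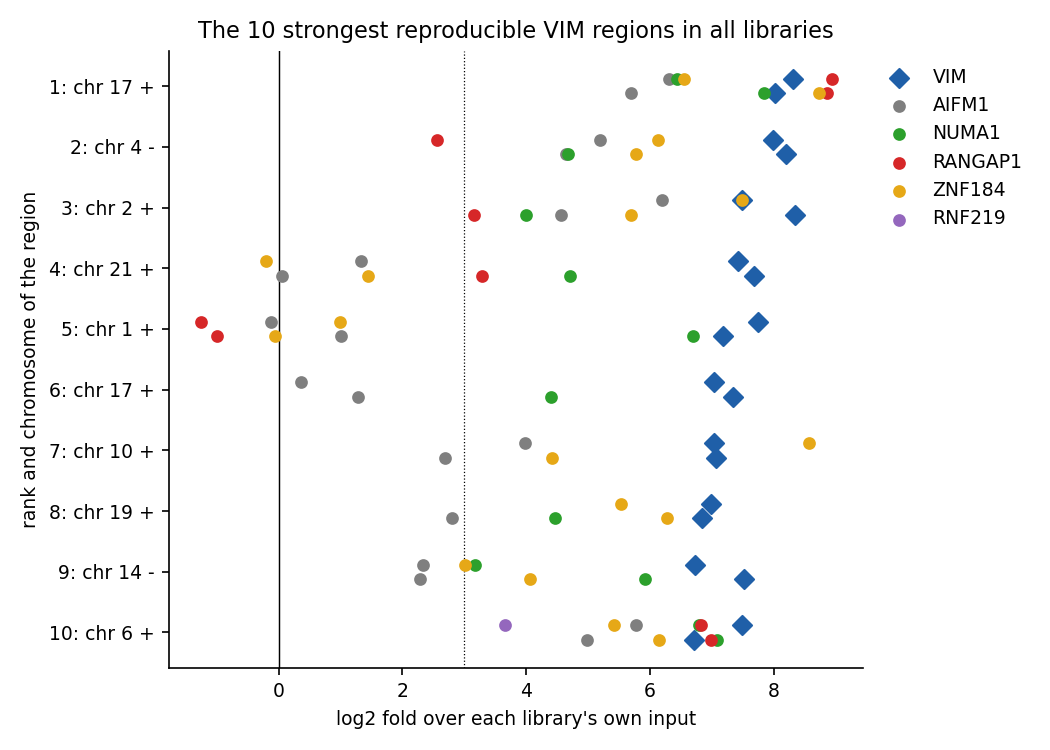
Log2 fold over each library's own input (x axis) at the 10 strongest reproducible VIM regions (y axis, by rank, chromosome and strand). Diamonds are the VIM libraries, circles the libraries of other proteins with a peak there, with replicate 1 above replicate 2; the dotted line marks a log2 fold of 3. VIM lies between 6.71 and 8.34 in all 10, and both RANGAP1 libraries lie below input in the fifth.

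The 171 regions overlapped the significant peaks of some libraries far more than others. ZNF184 had a significant peak at 60 of them in replicate 2 (35.1%, 95% Wilson interval 28.3 to 42.5) and at 30 in replicate 1 (17.5%, 12.6 to 23.9). NUMA1 had one at 46 in replicate 2 (26.9%, 20.8 to 34.0) but at 10 in replicate 1 (5.85%, 3.21 to 10.4). RANGAP1 had 15 and 19, AIFM1 10 and 13, and RNF219 5. Each share was above the share of that library's own deposited peaks that was significant, given above, which was 0.877% in NUMA1 replicate 2. The bases are unlike, since the 171 regions were picked for a high VIM fold. Among the regions with a deposited peak of the library, the significant share ran from 9.17% in AIFM1 replicate 1 to 46.2% in ZNF184 replicate 2. Part of this is set by where peaks were deposited at all, which ran from 26 of the 171 regions in RNF219 to 130 in AIFM1 replicate 2 and ZNF184 replicate 2.

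The NUMA1 libraries differed most from each other at these places. Of the 46 regions significant in NUMA1 replicate 2, 10 were also significant in NUMA1 replicate 1, and 20 had no peak of NUMA1 replicate 1. Where they had a peak, the median log2 fold at the VIM regions was 3.17 in NUMA1 replicate 2 and 1.85 in replicate 1, while over all their peaks the medians were 1.34 and 1.36. The depth ratio of NUMA1 replicate 2 was 3.18, near the 3.27 of VIM replicate 2, and that of NUMA1 replicate 1 was 1.80; its part in the overlap was not tested. In AIFM1 the median at the VIM regions was 0.77 and 0.83, and 27 and 40 regions lay below input. RNF219 had a median of -1.57 over its 26 peaks there, of which 18 lay below input.

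**Figure D3:**
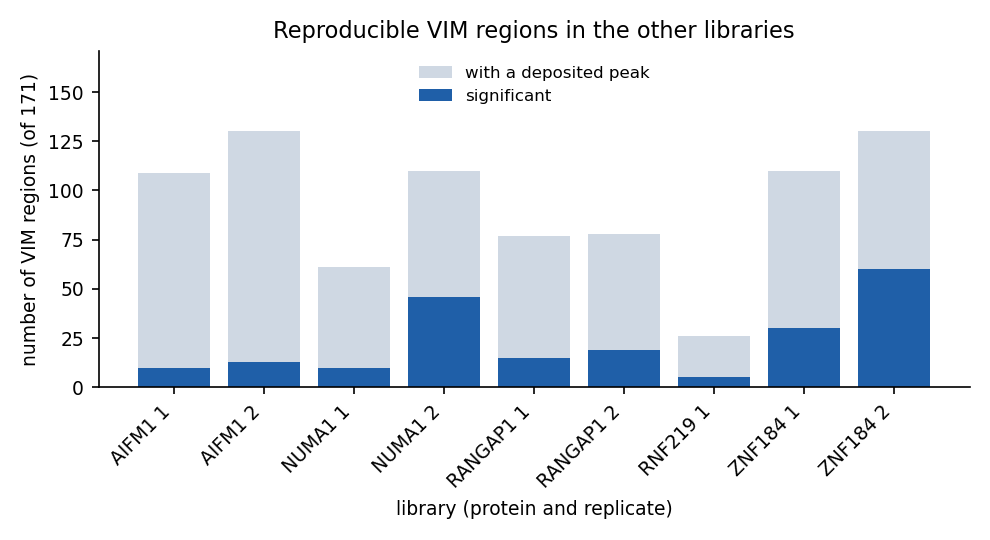
Number of the 171 reproducible VIM regions (y axis) with a deposited peak (pale bars) and with a significant peak (dark bars) in each of the 9 libraries of other proteins (x axis). ZNF184 replicate 2 and NUMA1 replicate 2 have the most significant ones, 60 and 46.

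By protein, 79 of the 171 regions (46.2%, 38.9 to 53.7) were significant with no other protein. Another 54 were shared with 1 protein, 26 with 2, 5 with 3, 6 with 4, and a single region (1) with all 5. ZNF184 was the other protein at 63 regions, NUMA1 at 46, RANGAP1 at 21, AIFM1 at 15 and RNF219 at 5. ZNF184 was the lone other protein at 28 and NUMA1 at 14. The share with no other protein over all 3041 regions with a peak of both is not given here, so the 46.2% cannot be called high or low. The 79 regions were the weaker ones. Their lower fold had a median of 3.86, against 4.48 in the regions shared with another protein, and 3 of them were among the 20 strongest. Most of them still had a peak elsewhere: 69 of the 79 had a peak of another protein, above input in 61 and at a log2 fold of at least 3 in 11.

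The strongest of the 79 was chr12:99288726-99288762 on the minus strand, with 6.98 and 6.30. AIFM1 had 1.87 and 1.42 there and ZNF184 had 2.77 and 3.78, which passed the fold in 1 library but not the p. At chrX:73209564-73209611 on the plus strand, VIM had 5.98 (13 eCLIP reads beside 1 input read, interval 3.24 to 11.38) and 6.35 (25 beside 1, 3.74 to 11.71). The 1 other library with a peak was AIFM1 replicate 1, at 1.28. At chr13:37438550-37438602 (minus strand) VIM had 6.18 and 5.91, against 2.56 to 3.34 in the 4 other libraries with a peak. At chr20:26189002-26189094 (minus strand) it had 5.98 and 5.62, and the others ran from -0.03 to 2.08. At chr6:13214388-13214434 (plus strand) it had 5.60 and 5.62, against 0.86 to 2.10.

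Few reproducible regions lay near each other. Within 10 kb on a strand, 32 regions formed 14 runs and the other 139 stood alone. The largest runs held 3 regions each. On chromosome 21 (chr21:9825839-9826248, plus strand) the folds ran from 5.30 to 7.42 in replicate 1 and from 5.99 to 7.68 in replicate 2, and every VIM peak of the run was significant. On chromosome X (chrX:73071858-73072223, minus strand) replicate 2 was higher at all 3 regions, with 4.60, 4.44 and 4.83 against 3.35, 3.12 and 3.31. These were among the better counted regions, with 42 and 148 eCLIP reads beside 20 input reads at the first. The intervals there, 2.54 to 4.19 and 3.92 to 5.35, overlapped narrowly. Of the deposited peaks in this run, 9 of 12 were significant in replicate 2 and 3 of 7 in replicate 1. On chromosome 20 (chr20:26189002-26190247, minus strand) the folds were between 3.65 and 5.98 in both replicates.

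On the plus strand of the mitochondrial chromosome VIM peaks lay mostly below input, and 4 mitochondrial regions were reproducible. On that strand 66 of 85 peaks of replicate 1 and 63 of 95 of replicate 2 were below input, at medians of -0.61 and -0.52. The minus strand had few peaks, of which 0 of 4 and 2 of 6 were below input, at medians of 1.37 and 2.68. Of the 62 regions with a peak of both replicates, 37 were below input in both, 17 were above in both and 8 lay on opposite sides. Of the 17 above input, 13 missed the threshold in at least 1 replicate. Over the whole of both lists 7.50% and 8.47% of peaks were below. The 4 reproducible regions were chrM:5828-5859 on the minus strand (4.16 and 4.89), the abutting pieces chrM:4431-4461 (3.88 and 4.40) and chrM:4420-4430 (3.81 and 4.32), and chrM:617-639 (3.11 and 3.82), the last 3 on the plus strand. All 4 were also significant with at least 1 other protein, and RNF219 was higher than VIM at each, at 5.64, 6.27, 5.22 and 7.62. RANGAP1 was below input at the pieces from 4420 to 4461, at -0.32 and -1.0.

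Among chromosomes, no share of significant peaks in VIM was set apart from the other proteins by the test. The share was compared as the mean of 2 VIM libraries against the mean of the 9 others in an exact permutation test (2-sided) over all 55 choices of 2 from 11 libraries, which allow no p below 0.0182. Of 25 chromosomes tested, 0 had an unadjusted p of 0.05 or less, and the lowest was 0.0727 (adjusted 0.727 by Benjamini-Hochberg). That was chromosome 20, with 3.89% and 5.08% in VIM and at most 3.21% in the others (mean 4.49% ± 0.837, SD, n = 2, against 1.86% ± 1.43, SD, n = 9). Even the smallest p could not have passed the adjustment if a single chromosome had reached it, since that would give 0.455. The tests measure the spread between these libraries, most of which share a protein and an input in pairs. They take the libraries as exchangeable, which such pairs are not, so the p-values can be too small.

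Counts of reproducible regions by chromosome were small. Chromosome 20 had 10 of 93 regions with a peak of both (10.8%), chromosome X 14 of 172, chromosome 1 18 of 347 and chromosome 15 0 of 56, against 5.62% over all. A count of 3 on chromosome 15 would be 5.36%, near the overall share, so its 0 of 56 is a gap of few regions. On chromosome 7, 8 of 9 reproducible regions were significant with no other protein, and on chromosome 3 it was 0 of 8. No test was made of these counts.

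**Figure D4:**
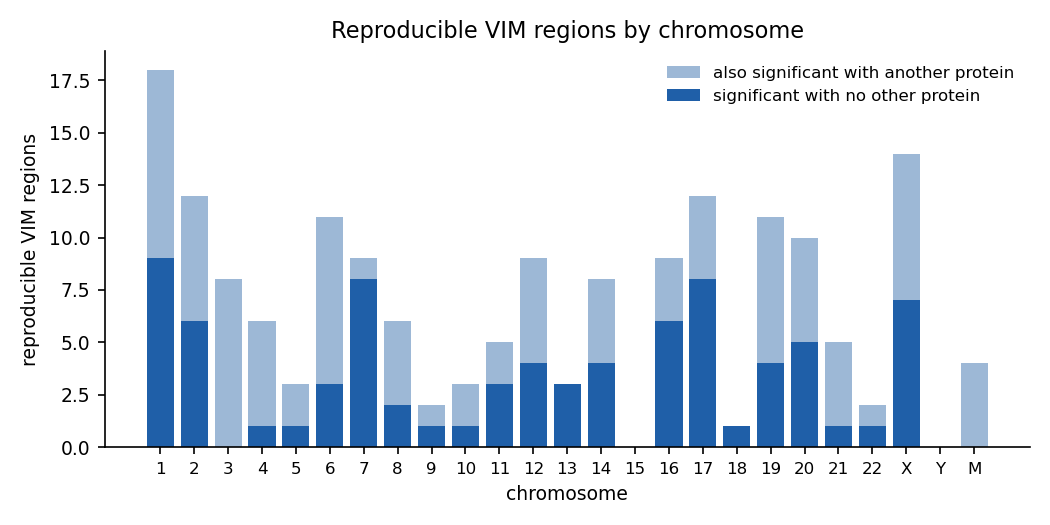
Number of reproducible VIM regions (y axis) on each chromosome (x axis). The whole bar counts all 171 regions and the dark part those significant with no other protein, which are 79 of 171 over all chromosomes. They are 8 of 9 on chromosome 7 and 0 of 8 on chromosome 3, both picked out after their values were seen.

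The folds of all deposited peaks were compared in the same way, as the median log2 fold of a chromosome's peaks minus that of all other peaks of the library. The lowest p was on chromosome X, where VIM stood at -0.49 and -0.58, beside -0.28 to 0.00 in the 9 other libraries. Both VIM values rest on the same input, and its part in them was not tested. As with the shares, libraries of the same protein are not independent, so the p-value can be too small. The VIM mean was -0.54 ± 0.07 (SD, n = 2) against -0.13 ± 0.11 (SD, n = 9), and the exact permutation p was 0.0182, at the floor of the test, with an adjusted p of 0.436 over 24 chromosomes. The difference fell short of the threshold after adjustment. It was -0.33 on peaks with at least 10 input reads, no longer at p of 0.05 or less without adjustment. The median fold of X peaks was 1.79 and 1.71 in VIM, so that they lay above input, as those elsewhere did at 2.27 and 2.30. The mitochondrial chromosome was at -2.87 and -2.68 in VIM, against a mean of -1.06 ± 1.21 (SD, n = 9), with an exact permutation p of 0.0727 (adjusted 0.545).

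Agreement between the VIM replicates was higher at log2 folds above 5 and in peaks of more reads. Of the significant peaks of replicate 1, 35.8% (202 of 565, 95% Wilson interval 31.9 to 39.8) overlapped a significant peak of replicate 2, and 31.5% (205 of 650, 28.1 to 35.2) did in the other direction. At log2 folds of 3 to 4 the share was 24.7% and 26.8%, at 4 to 5 it was 28.5% and 23.0%, at 5 to 6 it was 77.4% and 61.5%, and at 6 or more it was 85.3% (29 of 34) and 96.9% (31 of 32). With up to 7 eCLIP reads it was 18.4% and 10.3%, and with 32 or more it was 66.7% in both directions. Fold and reads are not independent of each other or of the call, and peaks of 1 site count more than once, so these shares are a description.

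**Figure D5:**
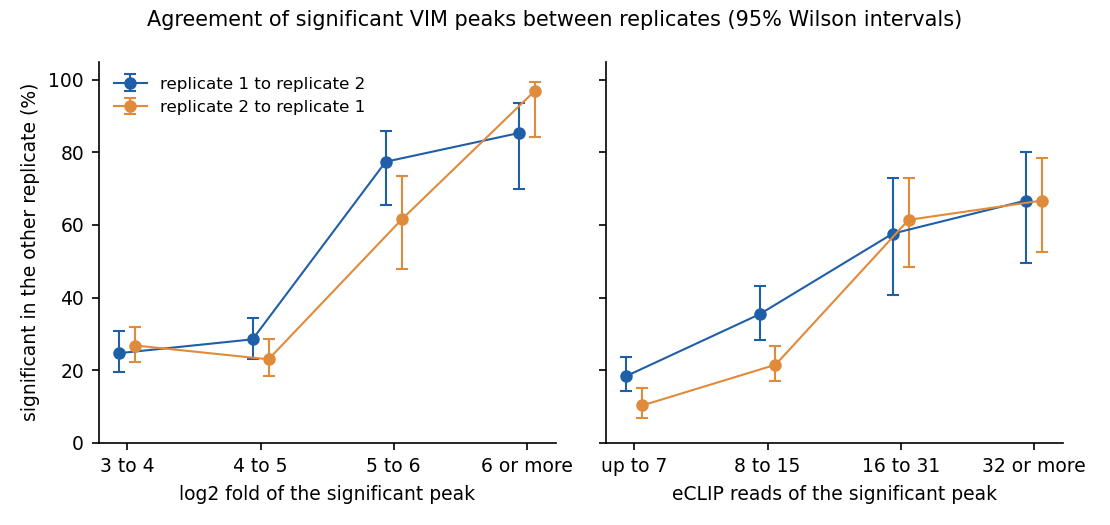
Share of significant VIM peaks of 1 replicate that overlap a significant peak of the other (y axis, percent, 95% Wilson intervals), by log2 fold (left) and by eCLIP reads where these are settled (right). Blue runs from replicate 1 to replicate 2 and orange the other way; the share is 24.7% and 26.8% at folds of 3 to 4, 28.5% and 23.0% at 4 to 5, and 85.3% and 96.9% at 6 or more.

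A significant peak in 1 replicate alone was found at 790 regions, 356 in replicate 1 and 434 in replicate 2. In 486 of them the other replicate had no deposited peak. In the other 304 its peak was above input every time, at a median log2 fold of 2.86, and in 124 it reached a fold of 3 but not the p. Among these 304, the 5 regions with the widest gap were all higher in replicate 1. At chr1:16861766-16861851 (minus strand) replicate 1 had 5.63 from at least 41 eCLIP reads and replicate 2 had 2.52 from 7 eCLIP reads beside 4 input reads. At chr1:150193002-150193064 (minus strand) the values were 3.27 and 0.43, from 34 and 7 eCLIP reads beside 17 input reads in each, and their intervals (2.39 to 4.21 and -1.08 to 1.77) lay apart. At chrX:154004541-154004599 (plus strand) they were 3.17 and 0.49, with intervals that overlapped (1.74 to 4.73 and -2.10 to 2.62). The remaining 2 were chr20:57466888-57466953 (plus strand), at 4.60 and 1.96, and chr1:150198946-150199124 (minus strand), at 3.62 and 1.13.

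At the other end, 434 regions were below input in both replicates, 21 of them at a log2 fold of -2 or lower in both and 3 at -3 or lower. The lowest was chr14:50329294-50329309 on the minus strand, at -5.72 and -6.20. It was as low in both NUMA1 libraries (-6.11 and -6.05) and in RNF219 (-6.39), and it was below input in every other library with a peak. The next, chr1:235291122-235291181 (minus strand), was at -4.49 and -3.62 and below input in all 9 other libraries, from -4.78 to -1.44. The third, chrX:118921360-118921410 (minus strand), was at -3.24 and -3.11 in VIM and about as low in AIFM1 (-3.11 and -2.98). RANGAP1 was below input there too, at -1.91 and -2.88. The region lay above input in ZNF184 (2.94 and 4.69), NUMA1 replicate 2 (1.21) and RNF219 (1.29). The deposited -log10 p is 0 for every peak below input, so it does not test how low these folds are.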

How the data were processed

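Peaks came from 11 deposited lists, 1 a library, with replicates kept apart. Per the submitters' processing notes, the reads went through cutadapt, STAR, Picard, SAMtools and GATK on build hg19. For the peak caller, duplicate removal and versions, the sources used here name nothing. The authors deposited a -log10 p, at 0 below input and at most 400, and a log2 fold over the size-matched input for each peak. Reads were recovered from folds and p-values, to within 1e-07 on the log2 scale and 0.005 on the log10 scale, as at most 200 eCLIP and 50 input reads. In VIM, 95.1% and 96.3% of folds were such ratios. Where p was saturated, at 15.66 for exact tests or at 400, or 0, only the least whole numbers are known. Recovery and tests were checked on simulated data.

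Positions are 1-based. Peaks were merged on a strand by at least 1 nt, and the best peak stands for a replicate. The loci named are the 10 strongest regions by the lower fold, the runs of most regions within 10 kb, the 5 strongest significant in no other protein and, among regions significant in 1 replicate, the 5 widest gaps between replicates. The lowest regions, the mitochondrial ones and those said to be were chosen after their values were seen. Gene lists and the VIM gene itself were to be described too but needed an hg19 annotation, so chromosomes served as classes. Members and lists were chosen with earlier results of these data known. Python 3.11.15, numpy 2.4.6, pandas 2.3.3, scipy 1.17.1 and matplotlib 3.10.9 were used.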

Additional observations from a re-analysis of the deposited data

Results flagged for a closer look

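At a few named regions both VIM libraries were above input and both libraries of another protein were below it. These differences were not tested, and each protein was set against its own input. At chr1:148241532-148241573 (plus strand) the lower VIM log2 fold was 7.18, and RANGAP1 had -1.26 and -1.0. At chr6:53084122-53084161 (plus strand) it was 6.61, and AIFM1 had -1.30 and -0.49 and ZNF184 had -1.23 and -2.43. At chr21:9826216-9826248 (plus strand) it was 5.98, and AIFM1 had -0.36 and -0.96. At the abutting pieces chrM:4420-4430 and chrM:4431-4461 (plus strand) it was 3.81 and 3.88, and RANGAP1 had -0.32 and -1.0 at both.

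The same was seen at 2 regions significant in VIM replicate 1 alone. At chr1:16861766-16861851 (minus strand) the lower VIM fold was 2.52, beside -0.72 and -0.82 in AIFM1. At chrX:154004541-154004599 (plus strand) it was 0.49, beside -0.10 and -0.75 in RANGAP1. Among all 171 reproducible regions, both libraries were below input at 15 in AIFM1, 5 in ZNF184, 3 in RANGAP1 and 2 in NUMA1. A region counts here only where both libraries of the protein have a peak. AIFM1 had a peak at 109 and 130 of the regions and ZNF184 at 110 and 130. RANGAP1 had one at 77 and 78 and NUMA1 at 61 and 110, so the counts do not share a base.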

How the results depend on the processing

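The counts followed the thresholds. Raising the log2 fold to 4 gave 342 and 340 significant peaks, 91 reproducible regions and an agreement of 29.5% from replicate 1. A -log10 p of at least 5 left 229 and 248 peaks and 102 regions. A Benjamini-Hochberg adjusted p of 0.05 or less in place of the p threshold gave 2714 and 1018 peaks and 301 regions. In replicate 1 it removed none of the 2714 peaks that pass the fold, and in replicate 2 it left 1018 of 4182. A log2 fold of at least 2 raised the agreement from replicate 2 to 35.9%. Merging without regard to strand gave 171 regions, and joining abutting pieces, added after seeing the data, gave 165. Stricter overlap was counted in significant replicate 1 peaks that overlap a significant replicate 2 peak, not in regions. There were 202 such peaks at 1 nt, 177 at 10 nt or more, and 197 under a rule scaled to the width of the shorter peak. With any peak above input counted as presence, 18 regions were left to VIM alone. Without NUMA1 replicate 2 it was 91 and without ZNF184 replicate 2 it was 95 (both added after seeing the data).

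Chromosomes with an unadjusted p of 0.05 or less, 0 for shares, became 1 with a log2 fold of at least 4 (chromosome 12), 1 with a -log10 p of at least 5 and 1 with pieces joined (both chromosome 20). For folds, 1 became 5 on peaks with at least 10 recovered input reads and 7 with means. None had an adjusted p of 0.05 or less, and the lowest was 0.0727. Chromosome X, the 1 of the main test, stood at -0.33 in both. Its unadjusted p was above 0.05 in both, so it was in neither the 5 nor the 7. Without 1 VIM replicate, X ran from -0.46 to -0.36, where 10 choices allow no p below 0.100. The labels tie no replicate number to a shared batch, and the numbers were not taken as pairs in the main test. Differences between replicates 1 and 2 in the chromosome shares correlated at 0.08 to 0.26 between VIM and the other proteins, over 0.1 with 3 of 4. Whether a replicate number stands for a shared batch was not tested. Under the replicate block the test counted 0 chromosomes for shares and 2 for folds (6 and X), over 30 choices. The alternatives on the order of annotation classes were not run, since they need an annotation of hg19. Depth limits most single folds, with medians of 7 and 8 eCLIP reads in significant peaks.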
